A study of Mus musculus with 2 samples.

Results

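Neutrophils rich in the transcripts of S100a8 and S100a9 were taken from 2 single-cell RNA libraries of CD45+ cells from B16F10 tumors, a mouse melanoma line grown in C57BL/6 hosts. A barcode was a member if it had 200 or more genes with a UMI (a unique molecular identifier, which counts 1 captured RNA molecule), no more than 10% mitochondrial UMIs, at least 1% of its UMIs from S100a8 and S100a9 together, less than 0.2% from C1qa, C1qb and C1qc, and at most 1 UMI each of the Cd3 and the Cd79 genes. The rule selected 405 of 12815 filtered barcodes. The control library (Usp18f/f mice, whose Usp18 gene is flanked by loxP sites and which carry no Cre) held 381 of 7086, and the library labelled Usp18f/f LysM-Cre held 24 of 5729. LysM-Cre places Cre in the Lyz2 locus, which is active in monocytes, macrophages and neutrophils, so that Usp18 was to be lost in those cells. USP18 is a protease induced by interferon that cleaves ISG15 from proteins and dampens signalling of the type I interferon receptor. Each library pooled 4 tumors taken at day 14, so each genotype is 1 sample without a replicate. All differences between the libraries are therefore given as values with counting intervals and without a test. The description rests mainly on the control cells.

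S100A8 and S100A9 form calprotectin, the calcium-binding protein that makes up much of the neutrophil cytosol. Neutrophils are made in the bone marrow, where they fill primary, specific and gelatinase granules in that order, and they enter blood with the receptors CXCR2 and CSF3R and little transcription left. In tumors they are known to take up a second program with chemokines, interleukin 1 and genes induced by low oxygen, and they are counted among the cells that restrain T cells there.

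The promoters of the genes on which the results turn are shown here with the letters of 3 motifs in capitals, taken from the RefSeq promoter table for GRCm38.p6 and cut where a GENCODE exon begins. S100a8 and S100a9 chose the cells, and Retnlg (the resistin-like gene of neutrophils) was higher in cells with more of them. In these 3 the capitals mark the C/EBP pattern TTNNGNAA, searched on both strands, which 36.8% of 32851 promoters of 250 bases hold. S100a8 lies on chromosome 3 from 90668978 to 90670035 on the plus strand, S100a9 on the same chromosome from 90692632 to 90695721 on the minus strand, and Retnlg on chromosome 16 from 48872621 to 48874496 on the plus strand.
S100a8, chr3:90668821-90668977, plus strand: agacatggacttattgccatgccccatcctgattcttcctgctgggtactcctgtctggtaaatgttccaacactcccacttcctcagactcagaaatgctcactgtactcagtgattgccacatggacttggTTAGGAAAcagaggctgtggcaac
S100a9, chr3:90695722-90695971, minus strand: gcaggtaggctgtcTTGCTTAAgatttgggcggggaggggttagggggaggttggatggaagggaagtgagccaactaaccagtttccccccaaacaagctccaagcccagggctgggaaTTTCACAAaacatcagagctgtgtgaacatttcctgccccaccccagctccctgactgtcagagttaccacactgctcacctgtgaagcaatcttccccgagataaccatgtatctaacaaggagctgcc
Retnlg, chr16:48872358-48872607, plus strand: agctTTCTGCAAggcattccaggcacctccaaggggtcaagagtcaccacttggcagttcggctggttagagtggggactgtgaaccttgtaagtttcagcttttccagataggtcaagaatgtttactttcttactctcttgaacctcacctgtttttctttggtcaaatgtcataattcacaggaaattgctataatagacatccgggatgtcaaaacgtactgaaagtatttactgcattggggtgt

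Cxcl2 and Cxcl3, ligands of CXCR2, were the most abundant chemokine and the chemokine with the greatest ratio over monocytes in these cells. Here the capitals mark the NF-kB pattern on either strand, GGG and TTTCC with 2 bases between them, present in 1.41% of the promoters. Counted from the RefSeq start, which for Cxcl2 lies beyond the end of the printed bases, Cxcl2 held 2 matches, 97 and 78 bases before it, and Cxcl3 held 1, 73 bases before it.
Cxcl2, chr5:90903649-90903870, plus strand: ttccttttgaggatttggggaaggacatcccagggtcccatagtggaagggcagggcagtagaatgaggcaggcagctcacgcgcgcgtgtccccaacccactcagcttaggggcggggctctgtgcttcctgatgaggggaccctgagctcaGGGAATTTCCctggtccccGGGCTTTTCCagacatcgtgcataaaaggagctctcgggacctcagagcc
Cxcl3, chr5:90785851-90786100, plus strand: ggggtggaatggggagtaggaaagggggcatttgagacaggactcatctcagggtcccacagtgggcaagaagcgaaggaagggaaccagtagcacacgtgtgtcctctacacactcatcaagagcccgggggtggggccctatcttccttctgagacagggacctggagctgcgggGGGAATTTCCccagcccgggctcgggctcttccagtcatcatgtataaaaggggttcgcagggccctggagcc

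Isg15, an interferon-induced ubiquitin-like protein and the substrate of USP18, was among the genes that stood highest in the library labelled LysM-Cre. The capitals mark 3 overlapping matches of the interferon-response pattern on the reverse strand, TTTC and TTTC with 2 bases between them. The pattern was searched on both strands and found in 2.98% of the promoters.
Isg15, chr4:156200819-156201068, minus strand: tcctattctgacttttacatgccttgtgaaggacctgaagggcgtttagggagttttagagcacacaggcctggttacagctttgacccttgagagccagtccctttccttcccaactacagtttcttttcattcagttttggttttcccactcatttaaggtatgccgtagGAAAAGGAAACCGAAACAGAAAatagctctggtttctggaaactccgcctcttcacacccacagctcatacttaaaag

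The promoters of Ccl3 and Il1b did not contain the NF-kB letters, and those of Ifitm1, Oasl2 and Slfn4 did not contain the interferon letters. A match is a description of the sequence, and neither a match nor its lack says whether a factor binds.

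The libraries held 43412346 UMIs in 7754 barcodes (control) and 48167632 UMIs in 6063 barcodes, and 8 barcode sequences occurred in both, 1 of them a control neutrophil. The neutrophils were shallow. They had a median of 1161 UMIs (range 522 to 23298) and 616 genes in the control, and 1537.5 UMIs (527 to 6628) and 703.5 genes in the library labelled LysM-Cre, where the medians over all filtered barcodes were 2840 and 4682 UMIs. Levels are given in CPM, a gene's summed UMIs in a set of cells for each 1000000 UMIs of that set. The summed depths were 618942 and 41962 UMIs, so that 1 UMI was worth 1.62 CPM in the control neutrophils and 23.8 CPM in the others. Intervals of levels and shares are exact Poisson or Clopper-Pearson 95% intervals, and those of ratios of levels are exact binomial ones. The interval of the ratio of the neutrophil shares is a log-normal approximation. All of these cover counting error only, not the spread between mice.

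The targeted gene was checked first. Usp18 (chromosome 6, 121245906 to 121270917, plus strand) had 16 UMIs in 11 control neutrophils, or 25.9 CPM (14.8 to 42.0). In the neutrophils of the library labelled LysM-Cre it had 5 UMIs in 2 cells, 4 of them in 1 cell, or 119 CPM (38.7 to 278). Usp18 transcripts were thus not lower under the label that should remove them. Which exons the loxP sites flank is not given in the sources used here, and 3′ reads from an exon that stays would not report the deletion. Lyz2, the lysozyme gene into which Cre is inserted, went with the labels: 1994 UMIs in 218 control neutrophils (3222 CPM, 3082 to 3366) and none among the 41962 UMIs of the other neutrophils, at least 45.1-fold lower. The direction of every difference below is that of the library labelled LysM-Cre over the control.

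Neutrophils made up 5.38% (4.86 to 5.93) of the filtered barcodes in the control and 0.419% (0.269 to 0.623) in the library labelled LysM-Cre, 12.8-fold lower (8.51 to 19.4). The direction held under every alternative rule tried. With S100a8 and S100a9 at 5% or more the shares were 2.44% and 0.262%, and with barcodes below 1% added where they held UMIs of at least 2 of 4 other neutrophil genes the control share was 7.0%. These are shares of the CD45+ cells that passed a sort, a droplet run and a cell caller whose lowest accepted barcode had 500 UMIs in each library. With 12 control members and 3 others below 600 UMIs, cells lost at that limit were not counted, and their part in the difference was not tested. Between 2 pools the genotype and the pool cannot be told apart.

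**Figure D1:**
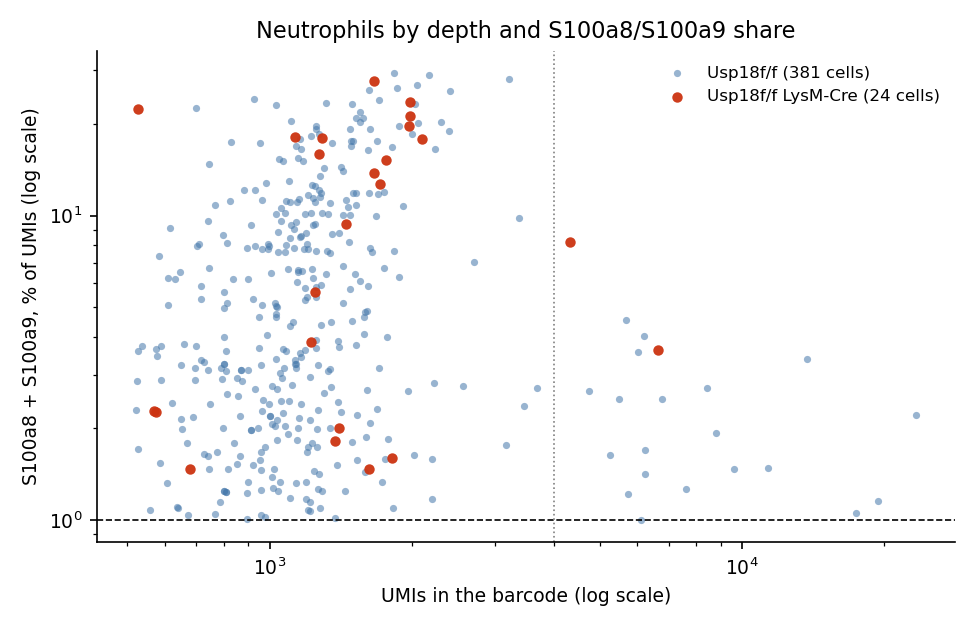
UMIs per barcode (x, log scale) against the percentage of UMIs from S100a8 and S100a9 (y, log scale) for the 381 control neutrophils (blue) and the 24 of the library labelled LysM-Cre (red). The dashed line is the 1% rule and the dotted line 4000 UMIs, above which 20 control cells all lie below 5%.

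The label was then checked with 4 neutrophil genes that the rule did not use. Retnlg, Csf3r (the receptor of the growth factor G-CSF), Cxcr2 (the receptor of CXCL2 and related chemokines) and Mmp9 (gelatinase B) left 21 control members without any UMI, while 44 had 1 of the genes, 79 had 2, 140 had 3 and 97 had all 4. At least 1 was present in 360 of 381 (94.5%) and in 21 of 24 (87.5%) members. In the control, Retnlg stood at 4173 CPM (4014 to 4337) in neutrophils, 0.680 CPM in monocytes (2 UMIs) and 4.83 CPM in macrophages, a ratio over monocytes of 6136-fold with an interval of 1697 to 50693. Cxcr2 reached 1060 CPM against 3.74 CPM in monocytes, or 283-fold (157 to 570). Mmp9 reached 1344 CPM against 5.10 CPM, or 264-fold (159 to 473). Csf3r reached 1837 CPM against 82.0 CPM, or 22.4-fold (19.5 to 25.9). Csf3r was also present in macrophages at 41.1 CPM. All 4 genes were higher in neutrophils than in monocytes, where Csf3r was the only one above 6 CPM.

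Monocytes here are 435 control barcodes with Ly6c2 and at least 2 UMIs of Csf1r, Ccr2 and Fcgr1 and with no Siglech or Flt3 UMI. Macrophages are 698 with at least 0.2% of UMIs from the C1q genes. Both sets were below the S100 and lymphocyte limits, and the genes that define a set are not read in a comparison with it. RNA free in the droplets can give UMIs in cells that do not make a gene. Its level was read in 1276 control B cells (median depth 1541 UMIs), where S100a8 and S100a9 together had 309 CPM against 60594 CPM in neutrophils. With every cell thinned to 500 UMIs, Retnlg was seen in 35.4% of neutrophils and 0.157% of B cells, Mmp9 in 48.0% and 0.157%, Cxcr2 in 44.4% and 0.235%, and Csf3r in 62.7% and 0.784%.

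The 1% rule cut through a continuous range. In the control, S100a8 and S100a9 held 1.00 to 29.4% of a member's UMIs, with a median of 4.00%. The 51 members at 1 to 1.5% and the 59 barcodes at 0.5 to 1% looked alike by the other genes: Csf3r UMIs in 70.6% and 79.7%, Mmp9 in 47.1% and 52.5%, Cxcr2 in 49.0% and 47.5%, and Retnlg in 19.6% and 18.6%. From 0.1 to 0.5%, 44.1% of 93 barcodes still had at least 2 of the 4 genes, and below 0.1% only 1.24% of 2740 did. These are descriptions of cells chosen by the same reads.

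Markers of other cells were few for some classes but not for others, and they were not evenly spread. Among control members the 6 mast cell and basophil markers and the 6 erythroid markers had no UMI, and T-cell, NK-cell and B-cell markers had 14, 15 and 18 UMIs in all. For eosinophils, the other granulocyte that could be sorted, 5 of 7 markers including Epx and Prg2 were at 0. Monocyte markers had 603 UMIs (974 CPM, against 6155 CPM in monocytes) and macrophage markers 564 (911 CPM, against 16834 CPM in macrophages). Markers of plasmacytoid dendritic cells had 487 UMIs (787 CPM, against 510 CPM in macrophages) and of conventional ones 90 (145 against 86.7 CPM). Platelet markers had 207 UMIs. The 20 control members with at least 4000 UMIs held 29.7% of all member UMIs, 85.7% of the monocyte marker UMIs and 78.9% of the macrophage marker UMIs. The 20 also held 77.6% of the plasmacytoid and 68.9% of the conventional dendritic marker UMIs. Of them, 19 had UMIs of at least 3 marker genes of a monocyte, macrophage or dendritic class, against 3 of 361 shallower members. No doublets were removed. Scrublet, which scores barcodes as mixtures of cells, would take out 15 control members and 1 of the others. Values without these deep barcodes are given beside several of the results that move with them.

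In the library labelled LysM-Cre, 3 of 24 members had none of the 4 neutrophil genes. Of all 24, 1 member held 9 and another 7 of the 20 melanoma marker UMIs found in the set (Pmel, Dct and related pigment genes), and these cells had 679 and 575 UMIs. Levels in that library rest on few cells, which are counted beside the values.

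By gene list, the control neutrophils had their highest medians over monocytes in specific granule genes, stefins and chemoattractant receptors. The specific granule list includes Camp, Ngp and Ltf, whose UMIs lay mostly in few cells, as given below. Of 8934 genes with at least 20 UMIs over both sets, 9.86% were at least 2-fold higher and 19.9% at least 2-fold lower in neutrophils, on the scale of log2(CPM + 5), and the median over all genes was -0.30. Several lists share genes, since the sets of genes known from circulating and from tumor neutrophils draw on the granule, receptor, chemokine and hypoxia genes.

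Granule genes differed by the kind of granule. Of the primary granule genes, which are transcribed in marrow progenitors, Mpo, Elane, Ctsg and Ms4a3 had no UMI among 618942, which allows up to 4.85 CPM, and Prtn3 had 2. Specific granule genes were higher, with 5 of 8 measured genes past 2-fold, 1 lower and a median of 4.25. Lcn2, which binds bacterial iron carriers, had 860 CPM (788 to 936) in neutrophils and 28.9 CPM in monocytes. Pglyrp1, which binds bacterial peptidoglycan, had 506 CPM against 30.9 CPM. Camp (cathelicidin), Ngp and Ltf (lactoferrin) were another matter: their 599 UMIs came from 19 cells, and 2 cells held 86.1% of them. The counts and the median of the specific granule list include Camp, Ngp and Ltf. The gelatinase and secretory granule list had 6 of 10 genes higher and none lower (median 1.86), led by Mmp9, with Slpi, an inhibitor of elastase, at 1108 against 163 CPM and Mmp8, the neutrophil collagenase, at 378 against 85.7 CPM.

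Stefins, small inhibitors of cathepsins, had 4 of 5 measured genes higher (median 3.04). Stfa2l1 stood at 795 against 2.04 CPM and its neighbour in sequence Gm5483 at 1007 against 5.44 CPM. These genes are near copies of each other, so their separate values are uncertain. Genes with the largest ratios outside the lists were G0s2, an inhibitor of fat breakdown (1081 against 5.44 CPM), Hdc, which makes histamine (log2 ratio 5.79), and Asprv1, a protease (log2 ratio 5.78).

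Receptors for chemoattractants were high as a group, with 8 of 12 at least 2-fold higher, 1 lower and a median of 2.62. Beside Cxcr2 these were Hcar2, which senses ketone bodies (914 against 16.0 CPM), the formyl peptide receptors Fpr1 and Fpr2 (log2 ratios of 3.63 and 3.26), Cxcr4, which holds neutrophils in the marrow (393 against 37.7 CPM), and Ccr1, a receptor for CCL3 (log2 ratio 2.03). Pattern receptors had 9 of 14 higher and none lower (median 1.37). Trem1 (2.81), the lectins Clec4d (2.56) and Clec4e (1.57), and Cd14 (1.63), which passes endotoxin to TLR4, are examples. Receptors for growth factors and cytokines differed little, since 1 of 17, Csf3r, passed 2-fold and the median was 0.15. Fc and inhibitory receptors had 5 of 16 higher and 1 lower (median 0.58). Their signalling adaptors were among the abundant transcripts, Tyrobp at 4343 CPM and Fcer1g at 2024 CPM.

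Of the adhesion molecules, Selplg (PSGL-1, which lets leukocytes roll on vessel walls) had 456 against 190 CPM. The oxidase that makes superoxide was uneven: its cytosolic subunit Ncf1 had 590 against 143 CPM, and its membrane subunit Cybb 370 against 1112 CPM, or 138 CPM without the deep barcodes.

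Chemokines divided into 2 kinds. Cxcl2, Cxcl3, Ccl3 and Ccl4 were at least 2-fold higher, 6 of 13 were at least 2-fold lower, and the median was -0.66, or -2.71 without the 20 deep barcodes. Cxcl2 had 5887 UMIs in neutrophils, 9511 CPM (9270 to 9758), against 638 CPM in monocytes and 290 CPM in macrophages. It was seen in 78.2% of thinned neutrophils and 1.80% of B cells. Cxcl3 had 1664 against 35.0 CPM in monocytes, a 47.5-fold ratio (38.8 to 58.8). Ccl3, a ligand of CCR1, had 2461 against 201 CPM, or 12.2-fold (11.1 to 13.5), and the related chemokine Ccl4 934 against 244 CPM. Of the 4 genes higher in neutrophils, Cxcl2 and Cxcl3 encode ligands that attract neutrophils through CXCR2.

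The 6 genes at least 2-fold lower were Ccl2, Ccl5, Ccl9, Cxcl9, Cxcl10 and Ppbp. Ccl2, the ligand of CCR2, had 436 CPM in all members and 80.5 CPM without the deep barcodes, against 1320 CPM in monocytes. Cxcl9, which draws T cells through CXCR3, had 0 of 618942 UMIs against 204 CPM in monocytes, at least 42.0-fold lower, and Cxcl10 had 37.2 against 158 CPM, or 11.5 CPM without the deep barcodes.

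Il1b, the secreted form of interleukin 1, was high, and Il1a was nearly absent with 2 UMIs (3.23 CPM). Il1b stood at 3598 CPM (3450 to 3751) against 318 CPM in monocytes and was seen in 65.9% of thinned neutrophils and 0.862% of B cells. Its decoy receptor Il1r2 had 625 against 25.5 CPM and its antagonist Il1rn 557 against 96.6 CPM. Csf1, the macrophage growth factor, had 599 against 9.18 CPM. Il6 had no UMI, Tnf was at 90.5 CPM and Tgfb1 at 118 against 386 CPM. Over the list of interleukin 1 and other cytokine genes, 8 of 13 were higher, 2 lower and the median was 1.55.

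**Figure D2:**
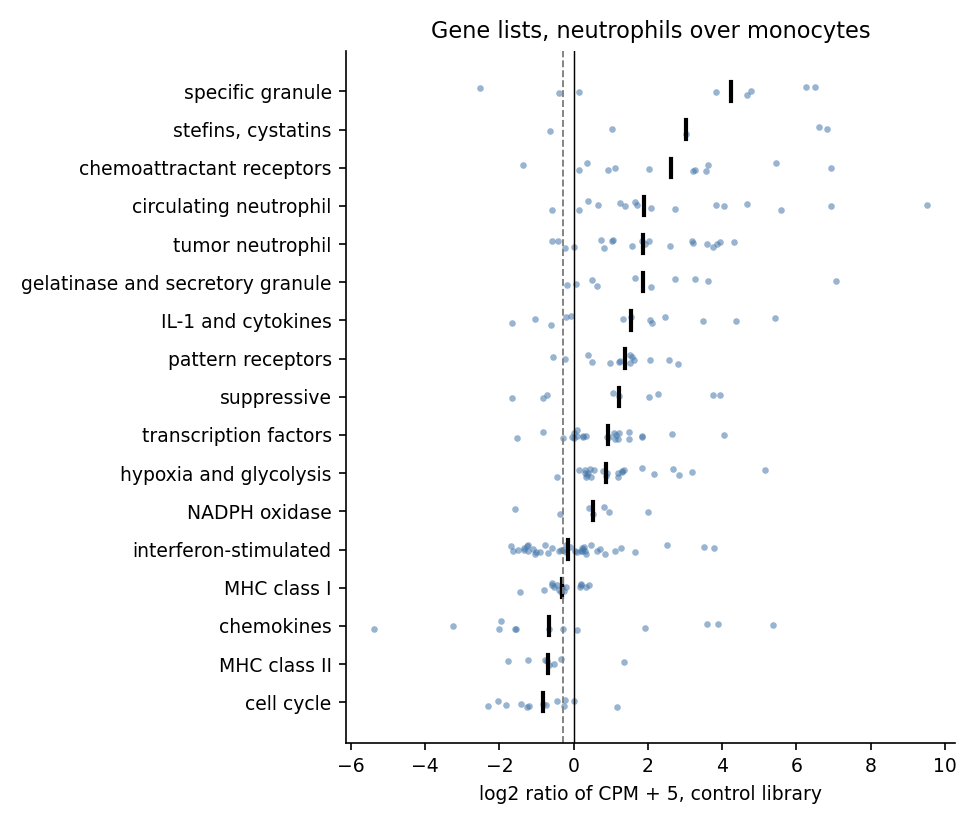
Each point is 1 gene of a list: log2 of (CPM + 5) in neutrophils over (CPM + 5) in monocytes of the control library, with the median of each list as a bar and the median of all 8934 genes (-0.30) as a dashed line. Of the lists plotted, specific granule genes have the highest median (4.25) and cell cycle genes the lowest (-0.82). The specific granule list includes Camp, Ngp and Ltf, whose UMIs lay mostly in few cells.

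Genes known from tumor neutrophils were higher in 14 of 20 cases and lower in none at the 2-fold limit (median 1.88). Without the deep barcodes, 14 of 19 were higher and 2 lower, where 12.1% of 8776 genes were higher and 33.9% lower. Ptgs2, the enzyme of prostaglandin synthesis, had 1034 against 62.9 CPM. Tnfrsf23, a decoy receptor for the death ligand TRAIL, had 263 against 8.50 CPM, and Cd274, which encodes PD-L1, 170 against 38.1 CPM. Siglecf, which marks long-lived neutrophils of lung tumors, had 18 UMIs (29.1 CPM). Genes known from circulating neutrophils were higher in 12 of 16 and lower in none (median 1.89). The same cells summed over the library thus held both sets.

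Among genes for arginine and nitric oxide use, Arg2 had 173 against 8.16 CPM. Arg1 had 176 CPM in all members but 4.60 CPM without the deep barcodes, and Nos2 had 20 UMIs.

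Genes of hypoxia and glycolysis had 11 of 24 members at least 2-fold higher and none lower, 23 of 24 above 0, and a median of 0.88. The glucose transporter Slc2a3 had 753 against 16.3 CPM. Hilpda, which promotes lipid droplets, had 1158 CPM (1075 to 1246) against 122 CPM. Ero1l, an oxidase of the endoplasmic reticulum, had 968 against 147 CPM, Egln3, an oxygen sensor of the HIF pathway, 334 against 42.2 CPM, and Vegfa, the growth factor of vessels, 254 against 67.0 CPM. Enzymes of glycolysis itself differed less, such as Gapdh (2488 against 2023 CPM) and Ldha (918 against 657 CPM). Against macrophages, 12.2% of 10262 genes were 2-fold higher and 25.4% lower. There, 12 of the 24 hypoxia genes passed 2-fold and all 24 were above 0 (median 1.08, all genes -0.37), and all 16 genes of circulating neutrophils passed it (median 4.71).

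Of the list of transcription factors, 11 of 24 were at least 2-fold higher in neutrophils, 1 was lower and the median was 0.93. The immediate early genes Egr1 and Junb had 1330 against 75.2 CPM and 2246 against 801 CPM. Cebpb, which drives neutrophil production under stress, had 2493 against 1331 CPM, less than 2-fold. Immediate early genes are also known to respond to tissue digestion, and what part that played was not tested. Of the survival genes, 6 of 18 were higher and 2 lower (median 0.54). Mcl1, on which neutrophil life depends, had 2779 against 940 CPM.

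Lists with no excess in neutrophils were the interferon-stimulated genes (6 of 40 higher, 11 lower, median -0.16), MHC class I genes (0 of 16 higher, 1 lower, median -0.32) and cell cycle genes (1 of 13 higher, 6 lower, median -0.82). Without the deep barcodes, 33.9% of 8776 genes were lower and the median of all genes was -0.46. There, 18 of the 40, 5 of the 16 and 10 of the 13 were lower, with medians of -0.62, -0.72 and -2.18. Against macrophages, 12 of 13 cell cycle genes were lower (median -2.55). MHC class II genes had a median of -0.69 in all members and of -3.73 without the deep barcodes, where 7 of 7 measured genes were lower and 33.9% of 8776 genes were. Among the genes furthest below monocytes were Vcan (30.7 against 513 CPM) and Fn1 (124 against 1682 CPM), matrix proteins of monocytes, which had 0 UMIs and 13.8 CPM without the deep barcodes, and S100a4 had 257 against 1375 CPM, or 13.8 CPM without the deep barcodes.

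The control neutrophils were not uniform, and granule and chemokine transcripts differed among them in opposite directions. They were divided by their share of S100a8 and S100a9 into 87 cells at 1 to 2%, 121 at 2 to 5%, 83 at 5 to 10%, 69 at 10 to 20% and 21 at 20% or more. Levels are UMIs for each 1000000 UMIs other than those of S100a8 and S100a9 (per 1e6). Since the bands rest on reads of the same cells, the values are a description and have no test. Median depth was 1104, 1067, 1136, 1274 and 1622 UMIs.

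Retnlg stood at 220, 1371, 3838, 9973 and 41801 per 1e6 from the lowest to the highest band. Lcn2 followed the same order with 215, 440, 881, 2104 and 5856 per 1e6. Mmp8 ran from 59.1 to 3624, Wfdc21 from 140 to 3880, Pglyrp1 from 145 to 3002, and Anxa1, an inhibitor of inflammation, from 156 to 2306 per 1e6. Mmp9 varied less, at 795, 1256, 1830, 2194 and 3550 per 1e6. All 7 were highest in the top band. Without the deep barcodes the lowest band had 393 per 1e6 for Lcn2, 95.3 for Mmp8, 238 for Wfdc21, 47.7 for Anxa1 and 1501 for Mmp9, all still below the top band. Cxcr2 (1607, 2219 and 1757) and Csf3r (2946, 3201 and 2233) had no such order over the upper 3 bands.

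Cxcl2 had 8411, 11881, 13055, 9654 and 695 per 1e6. Ccl3 had 2546, 3062, 3068, 2028 and 110, the last from 3 UMIs in the 21 cells of the top band. Cxcl3 ended at 256 and Hilpda at 183 per 1e6 after 1692 and 1380 in the lowest band. These 4 genes were lowest in the top band. Without the 20 deep barcodes, all of which lie below 5%, the 2 lowest bands had 14786 and 16840 per 1e6 for Cxcl2 and 5087 and 4167 for Ccl3, so that both genes were lower in every band above 5% than below it. The lowest band then had 2836 per 1e6 for Cxcl3 and 2800 for Hilpda. Il1b did not follow them, with 1923, 2996, 4586, 8583 and 6808 per 1e6. Genes of circulating neutrophils summed to 5070 per 1e6 in the lowest and 75073 in the highest band. Genes of tumor neutrophils summed to 12950 and 2745, and chemokines to 15329 and 3734. Single genes weighed heavily in these sums: Retnlg gave 41801 of the 75073 and Cxcl2 8411 of the 15329. Without the deep barcodes the lowest band had 7220, 20838 and 26331 per 1e6 for the 3 lists. MHC class II genes went from 7235 to 220 per 1e6, but the lowest band had 822 without the deep barcodes.

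**Figure D3:**
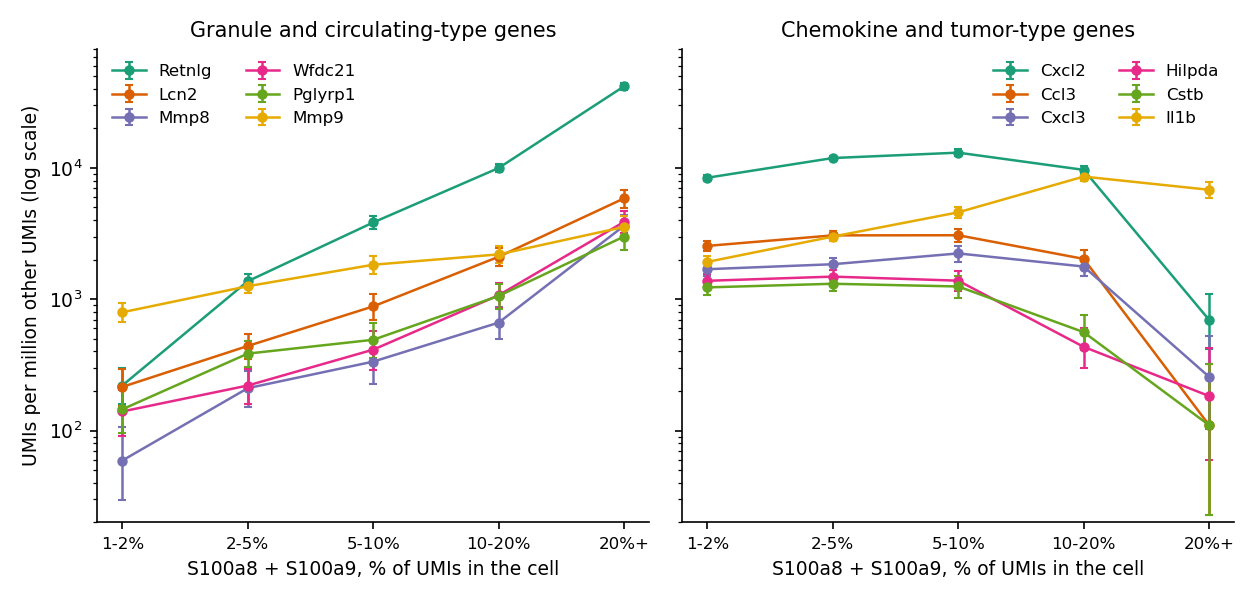
Control neutrophils in 5 bands of S100a8 and S100a9 (x) against UMIs per 1e6 other UMIs (y, log scale), with 95% Poisson intervals as bars. Retnlg climbs from 220 to 41801 while Ccl3 ends at 110 after 2546 in the lowest band.

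The same opposition was present between single genes without the bands. With every control neutrophil thinned to 500 UMIs, 135 cells had a Retnlg UMI and 246 had none. Ccl3 was seen in 28.9% (21.4 to 37.3) of the cells with Retnlg and 59.4% (52.9 to 65.5) of those without, Cxcl2 in 64.4% and 85.8%, and Ccl4 in 13.3% and 29.3%. Lcn2 went with Retnlg, at 34.1% and 18.3%, as did Slpi at 50.4% and 30.1%. Il1b (69.6% and 63.8%) and Mmp9 (49.6% and 47.2%) were seen about as often in both. Per cell, Spearman's rho between the thinned UMIs of the circulating and the tumor list was -0.48 over 381 cells, which share 1 library and a fixed total, so that more UMIs of one list leave fewer for the other. The deepest granule signal lay in 2 cells with 386 and 130 UMIs of Camp, Ngp and Ltf, whose S100 shares were 28.1% and 25.6%.

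In the library labelled LysM-Cre, the few neutrophils held more interferon-stimulated transcripts and fewer of the hypoxia and chemokine genes than those of the control. Summed levels of specific granule genes were lower too, but 2 of the 381 control cells held 86.1% of the Camp, Ngp and Ltf UMIs. Ratios here are log2(CPM + 20), over 4183 genes with at least 20 UMIs in both sets together. Of these genes 3.99% were at least 2-fold higher and 20% at least 2-fold lower, and the median of all was -0.26, so that medians are to be read against that value. The members of this library also had larger S100 shares (median 11.04% against 4.00%), and 15 of 24 were at 5% or more against 173 of 381. Since levels differ with that share in the control, lists are also given for cells at 5% or more. There, 4.9% of 1877 genes were higher, 20.9% lower and the median was -0.19. That limit leaves the shares unequal, with S100a8 and S100a9 at 159070 CPM against 127720 CPM in the control. In control cells at 5 to 10%, 10 to 20% and 20% or more, the per-cell median of the hypoxia list was 2.07%, 0.928% and 0.788%. That of the chemokine list was 1.75%, 1.08% and 0.242%. What part the remaining difference in share played was not tested. Monocyte markers were higher in these members too, at 1478 against 974 CPM, or 774 against 198 CPM in cells under 4000 UMIs, with a UMI in 11 of 24 and 82 of 381 members. The 2 members with at least 4000 UMIs held 26.1% of the UMIs of this set. Among members with no UMI of Csf1r, Ccr2 and Ly6c2, the medians of the interferon-stimulated, hypoxia and chemokine lists were 1.49, -0.95 and -0.89. With the barcodes under 1% that held other neutrophil genes added, they were 1.18, -0.31 and -0.57. The hypoxia median was then near the -0.26 of all genes in the main comparison.

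The labels used here do not give the sex of the hosts. In the control, 22 members had Xist but no Y-linked UMIs and 93 the reverse, against 4 and 2 in the other library. The level of these genes in free RNA is not given here, so mixed sexes of the hosts are only a reading of these counts. Both kinds were found together in 7 control members and 0 of the others, and why was not tested. Most members showed neither, so that host sex and genotype cannot be told apart here.

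Of 27 measured interferon-stimulated genes, a list that includes Usp18, 16 were at least 2-fold higher, 25 were above 0 and the median was 1.34. At 5% or more it was 1.82, with 10 of 14 genes past 2-fold. Ifitm1, an antiviral membrane protein, had 595 UMIs (961 CPM, 886 to 1042) in the control and 181 (4313 CPM, 3708 to 4990) in the other library, 4.49-fold higher (3.78 to 5.31). It was found in 18 of the 24 cells. Isg15 had 120 CPM (74 UMIs, 31.1% of them in 1 cell) and 691 CPM (29 UMIs in 11 cells), 5.78-fold higher (3.63 to 8.99). Rtp4, a chaperone induced by interferon, had 80.8 and 500 CPM, 6.20-fold higher (3.53 to 10.5). Ifit3 was 14.1-fold higher (7.37 to 26.8), but its 21 UMIs lay in 3 cells.

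Ifitm3 (890 and 2693 CPM), Ifi27l2a (475 and 2383 CPM), Oasl2 (144 and 500 CPM) and Slfn4 (326 and 929 CPM) were higher as well. Per cell, interferon-stimulated genes made up a median of 0.370% of UMIs other than S100a8 and S100a9 in the control and 1.86% in the other library, where 23 of 24 cells lay above the control median and 20 above its upper quartile (0.661%). Among cells at 5% or more the medians were 0.415% and 2.37%, and 15 of 15 lay above the control median. The difference was thus spread over nearly all of the few cells.

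**Figure D4:**
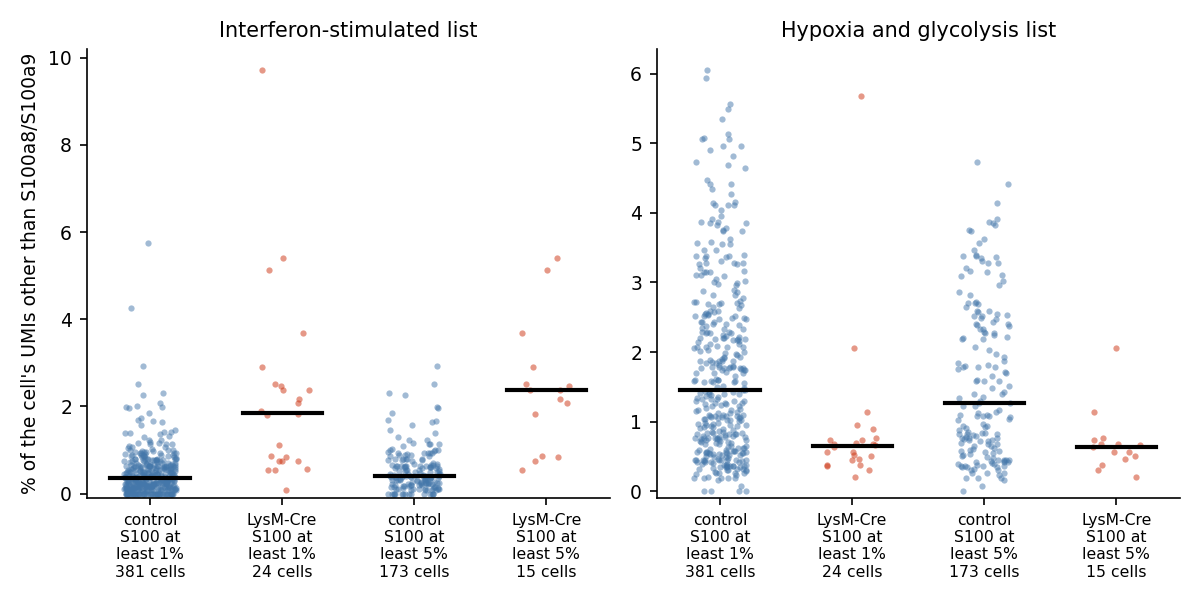
Percentage of each cell's UMIs other than S100a8 and S100a9 that came from interferon-stimulated genes (left) and from hypoxia and glycolysis genes (right), with medians as bars, for all neutrophils and for those with S100 shares of at least 5%. The medians are 0.370% and 1.86% on the left and 1.46% and 0.644% on the right.

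The same genes were read in other cells of the same libraries. In monocytes (435 and 1034 cells), where 0.962% of 10600 genes were 2-fold higher and 0.0472% lower, 27 of 43 interferon-stimulated genes were 2-fold higher, with a median of 1.24 (all genes -0.02). In B cells (1276 and 368), where 0.0887% of 9018 genes were higher and 0.233% lower, none of 38 was 2-fold higher, 1 was lower, 35 were above 0 and the median was 0.34. Interferon-stimulated genes were thus higher in neutrophils and in monocytes of the same library. In B cells most stood above 0 with a smaller median, where the median of all genes was -0.07. Whether the ratios differ between cell kinds was not tested, since each comes from 1 pair of libraries.

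Hypoxia and glycolysis genes were lower in the neutrophils of the 1% rule. Of 23 genes, 10 were at least 2-fold lower, none was 2-fold higher, 22 were below 0 and the median was -0.82. As given above, the median came near that of all genes once barcodes under 1% with other neutrophil genes were added. At S100 shares of 5% or more, 15 of 22 were lower and the median was -1.33. Ero1l had 968 CPM in the control and 214 CPM (9 UMIs) in the other library, Aldoa, an enzyme of glycolysis, 1158 and 500 CPM, Ldha 918 and 405 CPM, and Vegfa 254 and 47.7 CPM (2 UMIs in 1 cell). Hilpda had 1158 and 834 CPM, but 94.3% of its 35 UMIs in the second library came from 1 cell. Per cell, the list held a median of 1.46% in the control and 0.644% in the other library, and 22 of 24 cells lay below the control median. In monocytes the same genes had a median of 0.44, with 23 of 24 above 0, and in B cells -0.11.

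Chemokine genes had 6 of 11 at least 2-fold lower, 1 higher and a median of -1.18. In cells under 4000 UMIs the median was -0.53 over 7 genes, and at S100 shares of 5% or more it was -2.88, with 3 of 5 lower. Per cell, 20 of 24 members lay below the control median, and 9 of 15 at 5% or more. Cxcl3 had 4 UMIs (95.3 CPM) against 1030 (1664 CPM), 17.5-fold lower (6.80 to 64.2), and Ccl3 1072 against 2461 CPM. Cxcl2 remained the leading chemokine at 7626 against 9511 CPM. Ccl4 was higher, 2645 against 934 CPM, but 1 cell held 55.9% of its 111 UMIs, and at S100 shares of 5% or more its log2 ratio was -2.88. Genes of tumor neutrophils had a median of -0.35, with 3 of 18 lower and 1 higher, and -1.02 at 5% or more. Acot1, an acyl-CoA hydrolase found in 26.0% of control cells, had 152 UMIs (246 CPM) against 0, at least 3.44-fold lower.

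Genes of circulating neutrophils had 2 of 16 at least 2-fold higher, none lower and a median of 0.40. At S100 shares of 5% or more, 0 of 16 were higher, 2 were lower and the median was 0.18. Retnlg had 4173 and 5410 CPM, Cxcr2 1060 and 1168 CPM, and Csf3r 1837 and 2002 CPM, within 1.30-fold of each other in each case. Slpi was 2.60-fold higher (2.13 to 3.16), at 2884 against 1108 CPM, and Lrg1, a secreted glycoprotein stored in neutrophil granules, 5.11-fold higher (3.54 to 7.25), at 1049 against 205 CPM. Il1b had 5743 against 3598 CPM, and its UMIs were found in 23 of 24 cells. Specific granule genes had 5 of 8 at least 2-fold lower, 1 higher and a median of -1.58, or 5 of 7 lower and a median of -2.81 at 5% or more. Of these, Camp and Ngp had 277 and 235 UMIs in the control and 0 in the other library, but in the control the cell richest in each gene held 69.7% of the Camp and 54.9% of the Ngp UMIs. MHC class I genes had 2 of 14 higher, 1 lower and a median of 0.44 (2 of 7 higher and 0.57 at 5% or more), with H2-D1 at 3694 against 1695 CPM.

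**Figure D5:**
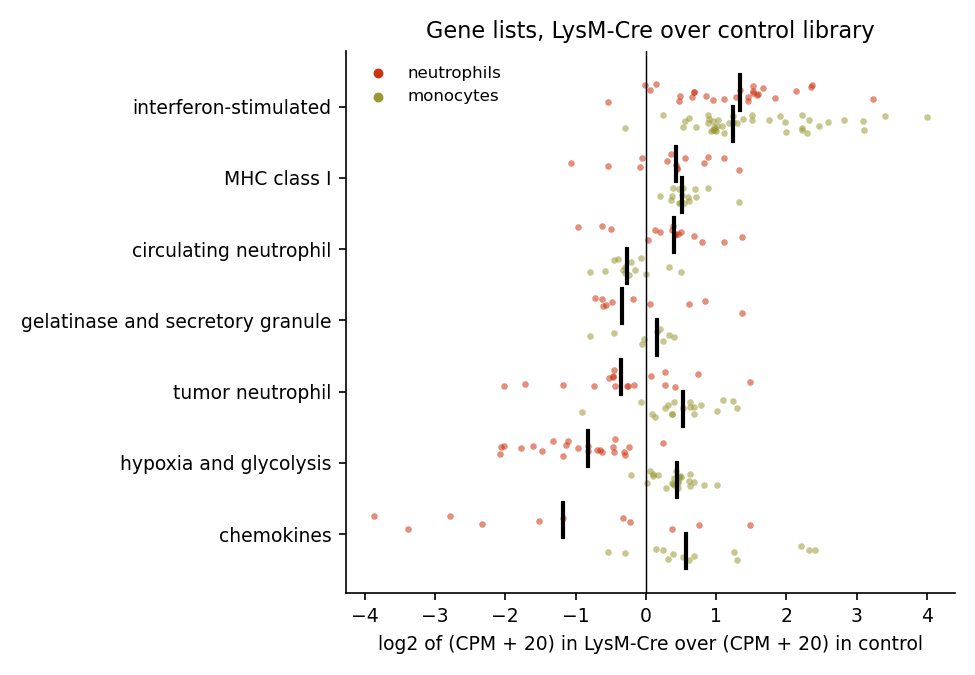
Each point is 1 gene of a list: log2 of (CPM + 20) in the library labelled LysM-Cre over (CPM + 20) in the control, for neutrophils (red) and monocytes (olive), with medians as bars. Interferon-stimulated genes have medians of 1.34 and 1.24, and hypoxia and glycolysis genes of -0.82 and 0.44.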

How the data were processed

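The files hold deposited UMI counts, unnormalized and 1 per gene in each barcode, made by the authors with Cell Ranger 3.0.1 per the file headers, with the build mm10 named in the submitters' processing notes. The matrices hold called cells only. Live CD45+ cells of 4 tumors were pooled into 1 library per genotype, per the labels. The gene list has 27998 entries, and gene positions come from GENCODE M21 (GRCm38).

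Counts were summed over cells with Python 3.11.15, numpy 2.4.6, pandas 2.3.3, scipy 1.17.1 and scanpy 1.11.5 (Scrublet at 0.8% per 1000 barcodes, for comparison only). Pseudocounts were 5 CPM between cell sets and 20 CPM between libraries, and genes needed 20 UMIs over both sets. For a count of 0, the limit was 3 UMIs. Shares of cells with a UMI were read after thinning to 500 UMIs. No test was possible with 1 library per group. Genes named were markers, members of 24 lists, the 20 most abundant, and the highest and lowest ratios among genes with at least 50 UMIs, where the highest over monocytes also needed UMIs in 10% of neutrophils. Of 358 list entries, 3 were not found. The members and lists were chosen with earlier results of these data known. The summing steps were tested on simulated data. Values of some list genes are not reported here.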

Additional observations from a re-analysis of the deposited data

Results flagged for a closer look

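In 2 gene lists the neutrophils and the monocytes of the same libraries moved in opposite directions between the library labelled LysM-Cre and the control. The hypoxia and glycolysis list had a median log2 ratio of -0.82 in neutrophils and 0.44 in monocytes, where the medians of all genes were -0.26 and -0.02. Once barcodes under 1% that held other neutrophil genes were added, the neutrophil value came near the -0.26 of all genes in the main comparison. The chemokine list had a median of -1.18 in neutrophils (-0.53 in cells under 4000 UMIs) and 0.57 in monocytes. Each value comes from 1 pair of libraries, so the difference was not tested.

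Barcodes with neutrophil genes also lay outside the rule. In the control library, 56 barcodes with less than 1% of UMIs from S100a8 and S100a9 had UMIs of at least 3 of Retnlg, Csf3r, Cxcr2 and Mmp9, against 1 in the library labelled LysM-Cre.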

How the results depend on the processing

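The share of neutrophils in the control moved from 5.38% to 4.15% and 2.44% with S100a8 and S100a9 at 2% and 5% or more, 9.33% with at most 5% mitochondrial UMIs, which removed more of the other barcodes, 4.37% without any Csf1r, Ccr2 or Ly6c2 UMI, and 7.0% with barcodes under 1% that held other neutrophil genes, an alternative chosen after seeing the data. In the library labelled LysM-Cre it moved from 0.419% to 0.262% (5% or more), 0.625% (mitochondrial limit) and 0.227% (no monocyte gene). The interferon-stimulated median of 1.34 became 1.82 at 5% or more, 1.62 below 4000 UMIs (chosen after seeing the data) and 0.57 in cells with Y-linked UMIs. Thinning to 1000 UMIs gave Ccl3 in 38.0% of cells with Retnlg and 66.4% of those without. Reversed were Usp18 (-1.46 in cells with Xist, -0.87 in cells with Y-linked UMIs), Ifitm1 (-5.62) and Isg15 (-1.68) in cells with Y-linked UMIs, Retnlg (-0.30 at 5% or more, -0.87 with Xist) and the circulating list (-0.47 with Xist). The splits by Xist and Y-linked UMIs left 4 and 2 cells of the library labelled LysM-Cre; for the other changes the cause was not tested. Each named value was counted once per alternative. For the main results, Usp18 among them, 67 recomputed values kept within their interval, 13 moved and 2 reversed. For the other named values, 143 kept within their interval, 100 moved and 5 reversed. For list medians the interval is taken from the ordered values of the list's genes and is not counting error. No paired analysis was possible because each group is 1 library. With 41962 UMIs in 24 cells, a gene with no UMI in the library labelled LysM-Cre may still have a level of up to 71.5 CPM.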
